A study of Mus musculus with 12 samples.

Results

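The genes described here are 31 genes of cholesterol synthesis, uptake, transport, storage and efflux, chosen by name and matched to their Ensembl identifiers in the deposited count tables. All 31 had enough counts to be tested, among 13030 genes tested of 41388 listed. They comprise 18 synthesis enzymes and 1 enzyme of the isoprenoid branch. Of the synthesis enzymes, 7 are of the early mevalonate pathway, 3 of squalene and lanosterol formation and 8 lie between lanosterol and cholesterol. The others are 4 sterol sensing genes, 3 intracellular sterol carriers, 1 esterifying enzyme, 2 efflux transporters, 1 regulator of uptake and 1 oxysterol synthase.

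The libraries are RNA-seq of primary bone marrow cells from C57BL/6 mice, 3 in each of 4 groups. The flox groups came from ASXL2flox mice and the KO groups from LysM Cre positive mice of the same series (titled ASXL2LysM), in which Cre recombinase is driven by the myeloid lysozyme promoter. All 4 groups spent 5 days in alpha MEM containing 10% FBS before replating. For the next 2 days they received 2% M-CSF (flox BMM and KO BMM, bone marrow macrophages) or 2% M-CSF plus the osteoclast-inducing cytokine RANKL at 50 ng/ml (flox OC and KO OC, labelled osteoclasts). The labels give no age. Whether a group's 3 libraries are from different mice or dishes is not stated, so each p-value here reflects only how far the libraries vary, which may be technical. No group carried Cre with an intact Asxl2 gene, so effects of Cre or of the altered lysozyme locus cannot be told apart from loss of Asxl2.

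Libraries held 18489873 to 21667237 counts. Levels are CPM, the library's counts for a gene scaled to a common depth with TMM factors, given as mean ± SD with n = 3. Asxl2 averaged 93.2 ± 3.01 CPM in flox BMM, 15.1 ± 0.265 in KO BMM, 73.4 ± 2.27 in flox OC and 13.8 ± 1.24 in KO OC. The remaining reads can come from exons outside the deleted stretch, which the labels do not name. Their source, and whether every cell lost the gene, was not tested. Osteoclast markers summed to 234.1 to 243.3 CPM in flox BMM, 206.1 to 210.1 in KO BMM, 743.6 to 765.1 in flox OC and 379.7 to 396.7 in KO OC, with Calcr and Oscar too low to be tested. Macrophage markers summed to 31944 to 33063, 28306 to 29065, 15607 to 16020 and 16695 to 16929 CPM in the same order, so the OC libraries held many macrophage transcripts. The lysozyme gene Lyz2 held most of each sum, at means of 21808, 19567, 10631 and 11674 CPM. Whether the altered lysozyme locus affects its level in KO was not tested. Stromal and osteoblast markers summed to 215.7 to 234.3 CPM in flox BMM and 68.26 to 77.08 in KO BMM, and to 183.3 to 184.6 in flox OC and 55.99 to 65.36 in KO OC, with all 10 that could be tested lower in KO in both cultures. The marker lists of the remaining cell types were each carried largely by 1 gene, and each held other markers too low to be tested. Of 5 megakaryocyte markers, Pf4 averaged 373.6 ± 32.2 CPM in flox BMM and 49.9 ± 2.11 in KO BMM, which made up nearly all of the summed 343.5 to 408 and 48.04 to 52.17 CPM, and Gp9, Gp1bb and Itga2b were too low to be tested. The neutrophil list summed to 78.76 to 83.25 CPM in flox BMM and 26.13 to 28.64 in KO BMM. Mmp8 held 72.9 and 22.5 CPM of this, and Elane, Mpo and Camp were too low to be tested. S100a8 averaged 4.28 CPM in flox BMM and 3.04 in KO BMM, S100a9 1.86 and 0.64, Ngp 1.22 and 0.38 and Ltf 0.71 and 0.37. Of the 5 neutrophil markers tested, 4 were lower in KO in each culture and 0 higher. Of the T and NK cell list (97.33 to 99.79 and 57.06 to 61.85 CPM), Il7r held 94.2 and 56.1 CPM, and Cd3e, Cd3d and Cd8a were too low to be tested. The endothelial list (35.14 to 39.73 and 24 to 26.11 CPM) was mostly Kdr, with Cdh5 at 3.91 and 4.33 CPM. The B cell list (25.76 to 27.58 and 16.76 to 18.47 CPM) was mostly Ighm. Pecam1, Emcn and Cd79a were too low to be tested. Adipocyte and dendritic cell markers summed to at most 14.71 and 12.26 CPM. Ly6g, Nkg7, Plin1 and Cidec had no counts in any library. In such mixed cultures, fewer cells of a type and less RNA per cell cannot be told apart, and the part of these marker differences in the sterol gene results was not tested. The 3 flox BMM libraries differed from each other more than those of other groups did, with a chi-square per degree of freedom of 2.71 to 5.05 between pairs against 1.23 to 2 elsewhere. The first of them held the highest level of its group for 16 of the 31 genes and the third held the lowest for 17.

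Cells make cholesterol from acetyl-CoA through the mevalonate pathway, which ends in farnesyl diphosphate. Squalene and lanosterol are then formed, and a chain of demethylations, reductions and isomerisations turns lanosterol into cholesterol. SREBP-2, the product of Srebf2, switches on these enzymes when membrane cholesterol is low: the escort protein Scap carries it from the endoplasmic reticulum to the Golgi for cleavage, and the Insig proteins hold it back when sterols are plentiful. When sterols accumulate, LXR receptors switch on the efflux transporters Abca1 and Abcg1 and the uptake inhibitor Mylip. Macrophages handle large sterol loads from engulfed cells and lipoproteins, and osteoclasts need membrane cholesterol for fusion and survival.

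Promoter sequence was available for 25 of the 31 genes, in RefSeq windows of GRCm38.p6 that run from 250 bases before to 50 bases after each start. Abcg1, Fdft1, Fdps, Npc1, Sqle and Stard4 had no window in the table. The stretches printed here, 5′ to 3′ on the gene's strand, lie before both the RefSeq start and the edge of the counted gene model. They show 2 genes that fell strongly with RANKL (Hmgcs1 and Insig1), the pathway's own transcription factor (Srebf2), a late enzyme lower in KO BMM (Sc5d) and the 2 genes whose genotype difference was largest among those of opposite sign in the 2 cultures (Abca1 and Ch25h). Capitals mark matches on either strand to the core of the sterol regulatory element CACNCCAC, the NF-Y box CCAAT and the GC box GGGCGG, and a match on the other strand appears as the reverse complement.
Hmgcs1 (chr13:119690101-119690350, + strand): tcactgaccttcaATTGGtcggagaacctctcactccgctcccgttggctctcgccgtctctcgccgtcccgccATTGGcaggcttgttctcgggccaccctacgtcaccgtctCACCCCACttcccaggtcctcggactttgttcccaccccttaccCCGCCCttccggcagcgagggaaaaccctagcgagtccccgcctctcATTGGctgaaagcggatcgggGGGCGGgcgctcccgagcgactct
Insig1 (chr5:28071162-28071362, + strand): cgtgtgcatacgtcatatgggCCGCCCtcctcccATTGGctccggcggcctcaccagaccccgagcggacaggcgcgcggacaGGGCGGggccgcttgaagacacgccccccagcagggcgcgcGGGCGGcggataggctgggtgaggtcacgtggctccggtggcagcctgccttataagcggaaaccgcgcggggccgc
Srebf2 (chr15:82147019-82147265, + strand): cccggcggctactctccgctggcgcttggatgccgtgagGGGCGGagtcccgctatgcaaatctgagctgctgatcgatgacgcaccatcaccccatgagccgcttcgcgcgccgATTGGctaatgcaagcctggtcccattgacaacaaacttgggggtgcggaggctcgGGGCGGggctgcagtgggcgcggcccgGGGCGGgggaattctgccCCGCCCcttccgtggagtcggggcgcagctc
Sc5d (chr9:42264301-42264550, - strand): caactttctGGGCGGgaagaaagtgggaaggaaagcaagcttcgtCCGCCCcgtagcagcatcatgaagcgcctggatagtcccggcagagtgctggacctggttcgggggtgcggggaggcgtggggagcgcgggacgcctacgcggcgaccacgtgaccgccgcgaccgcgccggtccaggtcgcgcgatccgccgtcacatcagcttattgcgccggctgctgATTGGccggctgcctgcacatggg
Abca1 (chr4:53159896-53160145, - strand): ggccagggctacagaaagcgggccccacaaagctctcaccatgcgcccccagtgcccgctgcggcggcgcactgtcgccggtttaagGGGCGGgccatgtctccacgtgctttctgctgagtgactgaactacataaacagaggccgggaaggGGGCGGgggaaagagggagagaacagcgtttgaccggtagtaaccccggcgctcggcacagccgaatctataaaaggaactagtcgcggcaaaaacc
Ch25h (chr19:34475149-34475398, - strand): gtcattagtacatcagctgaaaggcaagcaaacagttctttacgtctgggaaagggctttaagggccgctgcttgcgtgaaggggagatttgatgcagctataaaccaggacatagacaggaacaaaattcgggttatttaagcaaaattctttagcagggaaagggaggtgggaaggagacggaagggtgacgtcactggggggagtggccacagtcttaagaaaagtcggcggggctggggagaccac
The Hmgcs1 stretch held 1 match to the sterol element core, 129 to 136 bases before the start, with 3 NF-Y boxes and 2 GC boxes. The Insig1 stretch held 1 NF-Y box and 3 GC boxes, and a match to the sterol element core on the other strand lay 2 to 9 bases before its RefSeq start, beyond the stretch shown. Srebf2 held 1 NF-Y box and 4 GC boxes, and Sc5d 1 and 2. Abca1 held 2 GC boxes and none of the other motifs, and the Ch25h stretch held none of these letters.

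Over all 31 windows of the 25 genes, 67.7% held CCAAT, against 37.4% of the 32851 windows in the table. GGGCGG stood in 80.6% of the sterol gene windows and in 35.7% of all windows. CACNCCAC stood in 9.68% and 6.24%, and the genes that held it were Acat2, Hmgcs1 and Insig1. Among the synthesis enzymes with a window, 14 of 15 held CCAAT, beside 41.1% of all 27025 genes with a window. These are matches of letters and not measured binding sites, and they may overlap. The windows in the table were not restricted to genes tested here, whereas all 31 sterol genes were tested, so the shares are not matched for expression.

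Levels were compared between genes per kilobase of exon (RPKM, which is CPM divided by the exon length in kilobases). Npc2, which hands cholesterol to Npc1 inside the lysosome, was the highest in every group, at 309.7 RPKM in flox BMM and 330 in KO OC. Srebf2 came second in both of these groups, at 69.6 and 51.9 RPKM. Idi1, the isopentenyl diphosphate isomerase, was the lowest, at 0.687 RPKM in flox BMM and 0.497 in KO OC. Between these ends, the order had many ties: the libraries of neighbours in the ranking overlapped in 19 of 30 neighbouring pairs in flox BMM and in 16 of 30 in KO OC. Soat1 and Ch25h followed Srebf2 in flox BMM at 43.6 and 42.8 RPKM and overlapped, whereas in KO OC Soat1 stood at 25.4 and Ch25h at 13.7. The summed level of the 18 synthesis enzymes was 720.2 ± 31.8 CPM in flox BMM, 605.4 ± 3.89 in KO BMM, 539 ± 8.33 in flox OC and 487.5 ± 6.97 in KO OC.

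**Figure D1:**
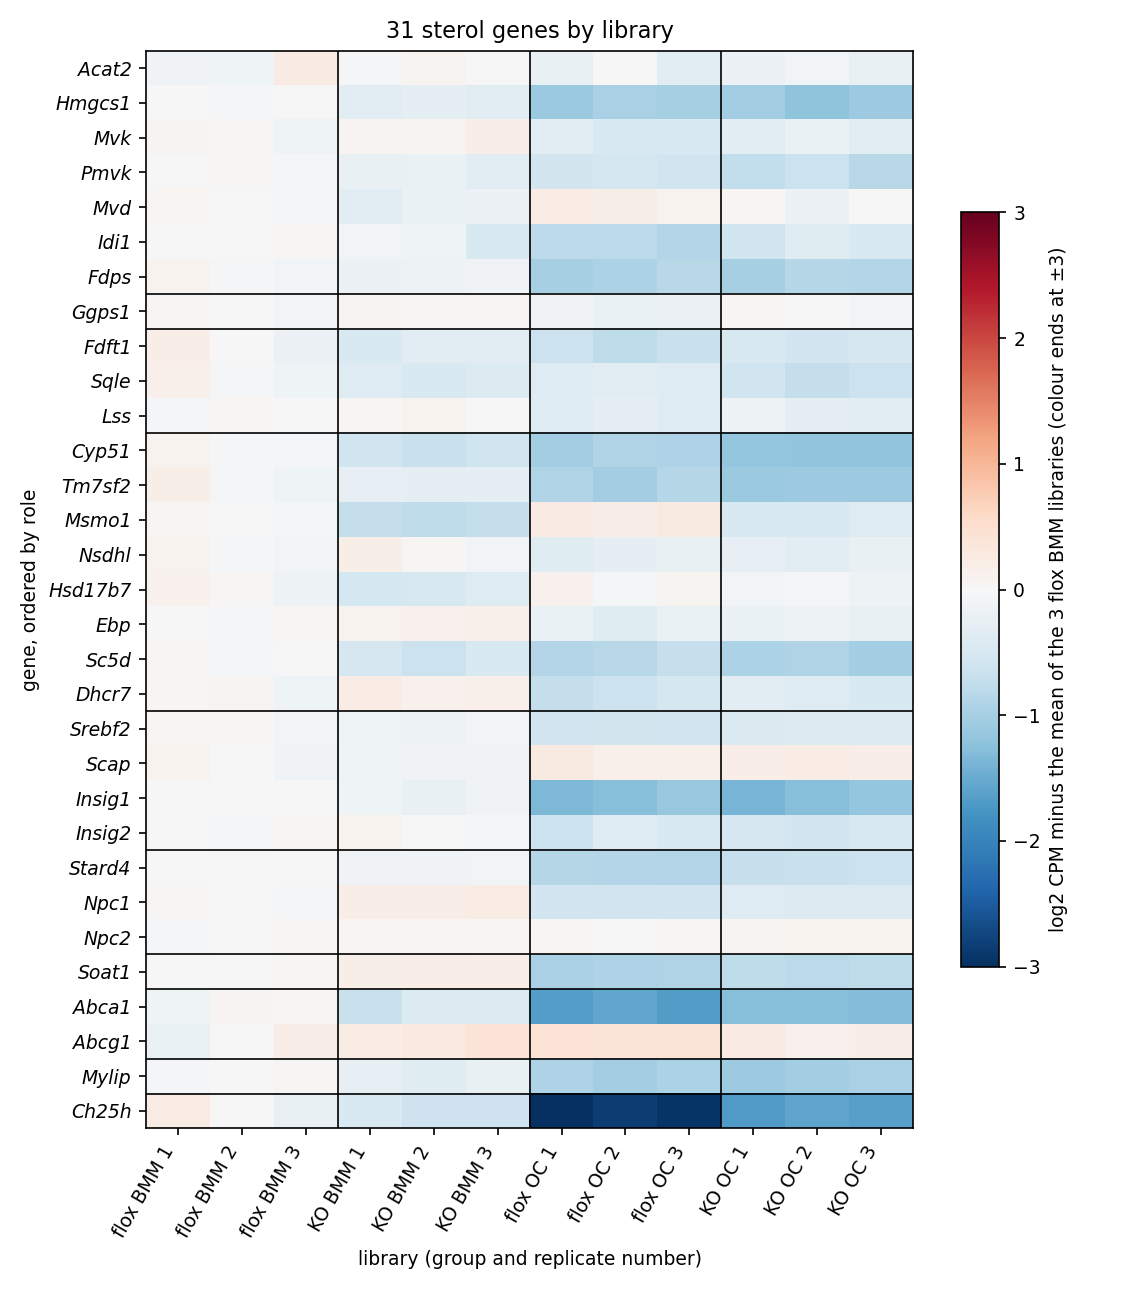
Heat map of the 31 genes (rows, ordered by role, with lines between roles) in the 12 libraries (columns), as log2 CPM minus the mean of the 3 flox BMM libraries, with colours ending at ±3. Ch25h, Abca1 and Insig1 are the bluest rows in the OC libraries, Msmo1 is blue in the KO libraries of both cultures, and Npc2 is nearly white throughout.

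With RANKL, most of the sterol genes fell in both genotypes. In flox cells 23 of 31 fell and 4 rose, where 37.8% of all genes tested fell, 37.0% rose and 74.8% changed in either direction. In KO cells 21 fell and 4 rose, where 35.0% of all genes fell, 35.5% rose and 70.5% changed. The median log2 change (the log2 of the fold change) of the 31 genes was -0.57 in flox and -0.41 in KO cells, against about 0 over all genes (-0.0036 and 0.0017). Calls are at an adjusted p under 0.05 from edgeR's quasi-likelihood test with Benjamini-Hochberg adjustment over all genes tested. A change beyond 1.2-fold passed edgeR's threshold test for 22 genes in flox cells (21 lower and 1 higher, beside 51.0% of all genes) and for 17 in KO cells (16 lower and 1 higher, beside 42.5%). The libraries of the 2 cultures did not overlap for 28 of the genes in flox and 27 in KO cells, where 75.2% and 73.4% of all genes did not.

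The genes that fell in both genotypes numbered 21 and came from every role except the isoprenoid branch. Mvd, Msmo1 and Scap rose in both, Abcg1 rose in flox cells and did not pass in KO cells, and Hsd17b7 rose in KO cells and did not pass in flox cells. Idi1 and Fdft1 fell in flox cells and did not pass in KO cells. Acat2, Ggps1 and Npc2 passed in neither. Log2 changes that did not pass lay between -0.19 and 0.07 in flox and between -0.25 and 0.04 in KO cells. Across the 31 genes the 2 changes correlated with r = 0.816 and rho = 0.894 (n = 31 genes, which are not independent), against r = 0.919 over all 13030 genes, and the change was smaller in KO cells for 67.7% of the 31 and for 65% of all genes. Macrophage markers moved with these changes, 10 of 10 being lower with RANKL in flox and 9 of 10 in KO cells, and osteoclast markers moved the other way, with 7 of the 8 tested higher in each genotype. Their part in the fall of the sterol genes was not tested.

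**Figure D2:**
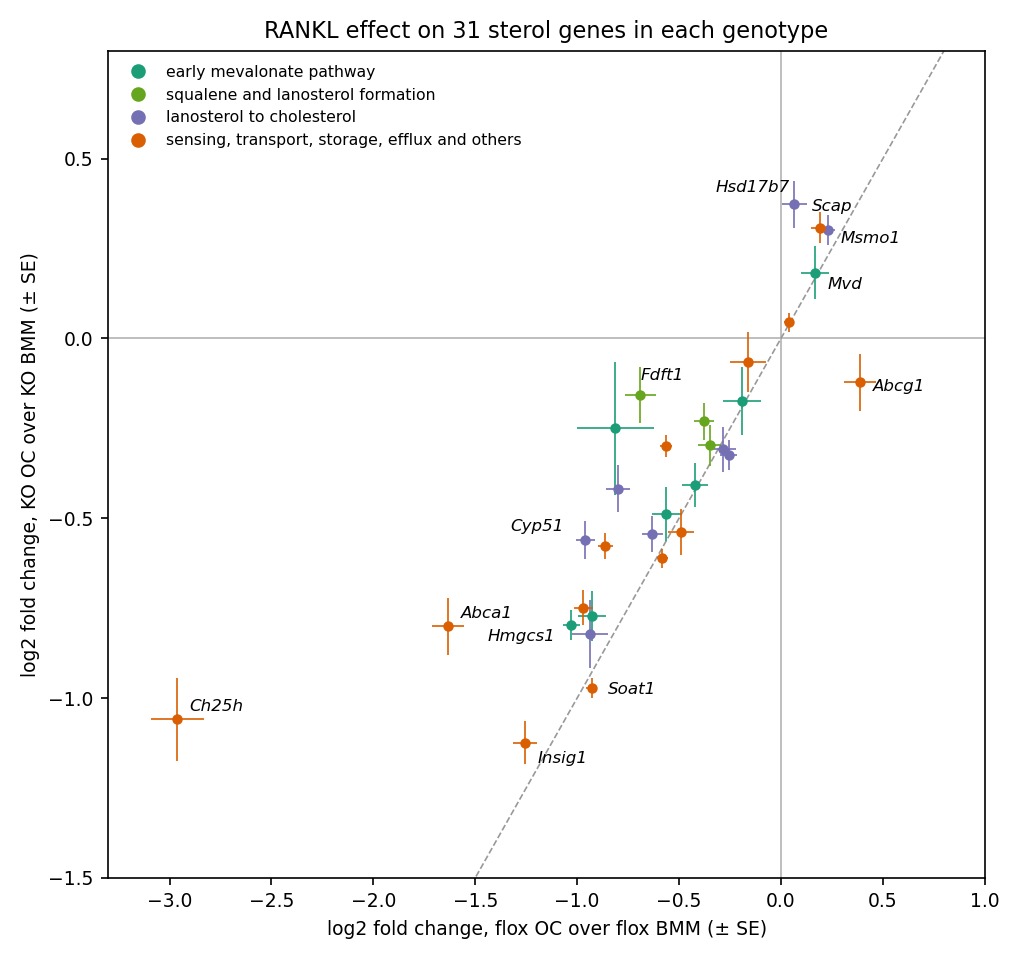
Log2 change with RANKL (OC over BMM) of each of the 31 genes in flox cells (horizontal axis) and in KO cells (vertical axis), with bars of 1 SE and colours by role; the dashed line marks equal changes and the axes differ in scale. Most genes lie below 0 on both axes near the line, with Ch25h (-2.96 and -1.06) and Abca1 (-1.63 and -0.80) far to its left and Abcg1 (0.39 and -0.12) to its right.

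In the comparison of genotypes under M-CSF alone, 17 of 31 genes were lower in KO BMM than in flox BMM, 5 were higher and 9 did not pass, beside 20.6% of all genes lower, 19.3% higher and 39.9% called in either direction. The median log2 change was -0.14, against 0.0008 over all genes. Without the first flox BMM library, 14 were lower and 6 higher and the median was -0.0968, and without the third 17 were lower and the median was -0.161. The 7 genes past 1.2-fold were all lower (Sqle, Cyp51, Msmo1, Hsd17b7, Sc5d, Abca1 and Ch25h), beside 11.8% of all genes past that limit in either direction. The libraries of the 2 genotypes did not overlap for 23 of the genes, beside 46.6% of all genes.

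With RANKL, the genotype difference was spread over both directions: 7 genes were higher in KO OC, 5 lower and 19 did not pass, beside 21.4% of all genes higher, 19.9% lower and 41.3% called. The median log2 change was 0.02, and 0.006 over all genes, and leaving out 1 library moved it from 0.000839 (without the second KO OC library) to 0.0507 (without the third flox OC library). Past 1.2-fold stood Ch25h (higher) and Msmo1 (lower), beside 11.4% of all genes. Libraries did not overlap for 21 genes, beside 51.3% of all genes. Dhcr7, Npc1 and Soat1 were higher in KO in both cultures, and Mvd, Sqle, Cyp51, Msmo1 and Hsd17b7 were lower in both. Srebf2, Stard4, Abca1 and Ch25h were lower in KO BMM and higher in KO OC. Another 8 genes were lower in BMM alone by these calls and Ebp and Abcg1 higher in BMM alone, and 9 passed in neither. Log2 differences that did not pass lay between -0.21 and 0.12 in BMM and between -0.20 and 0.35 in OC. Across the 31 genes the differences in BMM and OC correlated with r = 0.0941 and rho = 0.356 (n = 31 genes), and over all 13030 genes with r = 0.656 and rho = 0.489. Ch25h, at -0.58 in BMM and 1.32 in OC, lay far from the other genes. No r was computed without it, so its part in the low r was not tested. The 10 stromal and 2 megakaryocyte markers tested were lower in KO in both cultures, as were 4 of 5 neutrophil markers tested in each. Of the endothelial, B cell and dendritic cell lists, 1 marker each was lower in each culture. The T and NK cell list had 2 lower in BMM and 1 in OC, and the adipocyte list 1 in BMM. In all these lists 0 were higher. Macrophage markers were mostly lower in KO BMM (8 of 10, with 2 higher) and more often higher in KO OC (5, with 2 lower). Of the 8 osteoclast markers tested, 4 were lower and 2 higher in KO BMM, and 7 were lower and 0 higher in KO OC. Their part in these differences was not tested.

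**Figure D3:**
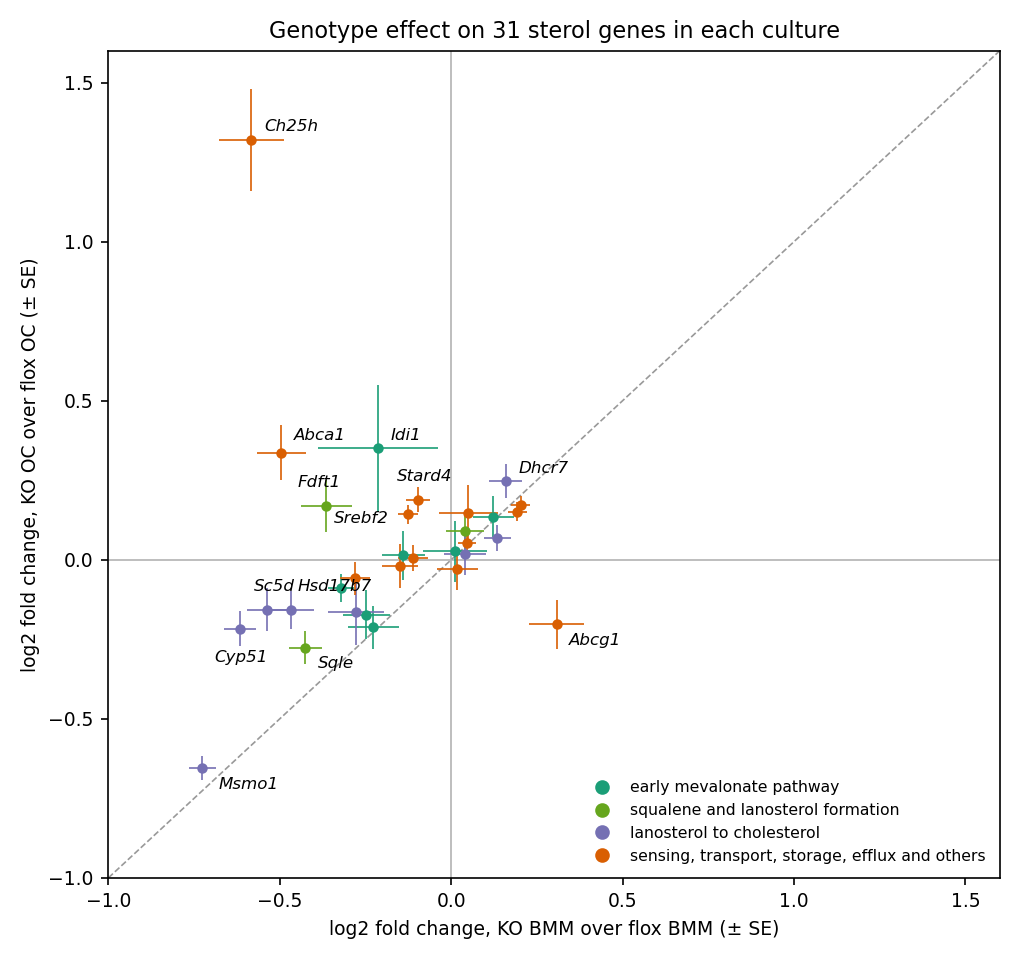
Log2 change between genotypes (KO over flox) of each of the 31 genes under M-CSF alone (horizontal axis) and with RANKL (vertical axis), with bars of 1 SE, colours by role and a dashed line of equal differences. Msmo1 lies near the line at -0.73 and -0.66, while Ch25h (-0.58 and 1.32) and Abca1 (-0.50 and 0.34) lie in the upper left, lower in KO BMM and higher in KO OC.

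The difference between the RANKL effects of the 2 genotypes was itself tested in the same model. It passed for 11 of 31 genes, 10 with a higher (less negative or more positive) RANKL effect in KO and 1, Abcg1, with a lower one, beside 12.3% of all genes higher, 9.54% lower and 21.9% in either direction. Past 1.2-fold were Ch25h and Abca1, beside 3.87% of all genes. The median difference was 0.11 on the log2 scale and 0.0108 over all genes. It was 0.0558 without the first flox BMM library, with 10 genes higher, and 0.143 without the third, with 12 higher. The same quantity is the genotype difference in OC minus that in BMM. By this test the RANKL effect was higher in KO for 9 of 10 macrophage markers and lower for 0. It was lower in KO for 4 of the 8 osteoclast markers tested and higher for 0. The part of these marker shifts in the sterol gene results was not tested.

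In the early mevalonate pathway, 5 of 7 genes fell with RANKL in flox cells and 4 of 7 in KO cells, beside 37.8% and 35.0% of all genes, and 3 were lower in KO BMM, beside 20.6%. Hmgcs1, the synthase that makes HMG-CoA, measured 99.0, 96.4 and 99.9 CPM in flox BMM, 77.6, 79.8 and 78.7 in KO BMM, 45.6, 49.9 and 49.2 in flox OC and 47.6, 42.6 and 45.9 in KO OC. The KO BMM libraries were all below the flox BMM libraries, and the OC libraries of both genotypes were lower still and overlapped. Its log2 change with RANKL was -1.03 (SE 0.0409, edgeR adjusted p = 2.06e-27) in flox and -0.80 (SE 0.0424, edgeR adjusted p = 3.63e-22) in KO cells. The genotype difference in BMM was -0.32 (SE 0.0384, edgeR adjusted p = 1.19e-09), and the RANKL effects differed by 0.23 (edgeR adjusted p = 0.00267). Of its longest transcript, 16.2% matched another gene at 97% identity or more over at least 100 bases, so part of its reads could have been left uncounted.

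The 2 kinases that follow, Mvk and Pmvk, fell with RANKL by 0.42 and 0.56 on the log2 scale in flox cells and by 0.41 and 0.49 in KO cells. Pmvk was also lower in KO BMM, at 15.8 ± 0.708 CPM against 18.7 ± 0.556 (log2 change -0.25). Fdps, which makes farnesyl diphosphate and is the enzyme blocked by the bisphosphonate drugs given against bone resorption, fell from 23.3 ± 1.42 to 12.3 ± 0.719 CPM in flox and from 21.1 ± 0.442 to 12.4 ± 0.582 in KO cells (log2 changes -0.93 and -0.77). Mvd, the decarboxylase between these steps, went the other way with RANKL, from 16.6 ± 0.684 to 18.7 ± 0.736 CPM in flox and from 14.2 ± 0.665 to 16.1 ± 1.38 in KO cells. These rises were small, at log2 changes of 0.17 and 0.18, and no longer passed when DESeq2 was used or low-count genes were kept. In flox cells the rise was also lost without the second or the third BMM library and without the first or the second OC library, and in KO cells without the first BMM, the first OC (0.12) or the third OC library. Mvd was lower in KO in both cultures, by 0.23 in BMM and 0.21 in OC on the log2 scale, and neither difference passed with DESeq2. The BMM difference was also lost without the first flox or the first KO library, and the OC difference without the first flox or the second KO library. Idi1, at 1.37 to 2.41 CPM by group, fell with RANKL in flox cells (log2 change -0.81). Acat2, which joins acetyl-CoA units, lay between 8.43 and 12.3 CPM in all 12 libraries with no call, and 65.6% of its longest transcript matched other genes, chiefly Acat3. Ggps1, which feeds protein prenylation from the isoprenoid branch, lay between 8.35 and 10.2 CPM and passed in no comparison. Other genes also matched 33.3% of the longest transcript of Idi1, 21.3% of that of Ggps1 and 16.7% of that of Fdps.

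In the formation of squalene and lanosterol, all 3 genes fell with RANKL in flox cells, beside 37.8% of all genes. Sqle, the squalene epoxidase and a slow step of the pathway (ENSMUSG00000022351, chr15:59315077-59331192, + strand), measured 97.4, 85.9 and 79.8 CPM in flox BMM and 66.9, 63.6 and 65.5 in KO BMM. In the OC libraries it measured 66.7, 68.7 and 66.8 CPM in flox and 57.5, 53.2 and 56.3 in KO. Flox libraries lay above KO libraries in each culture, and the KO BMM and flox OC libraries overlapped. Genotypes differed by -0.43 (SE 0.0491, edgeR adjusted p = 2.3e-08) in BMM and -0.28 (SE 0.0511, edgeR adjusted p = 5.56e-05) in OC. RANKL lowered Sqle by a log2 change of -0.38 (SE 0.0485, edgeR adjusted p = 3.8e-08) in flox and -0.23 (SE 0.0517, edgeR adjusted p = 0.000246) in KO cells, and the 2 effects differed by 0.15, which did not pass (edgeR adjusted p = 0.141) but passed without the third flox BMM library (0.20, edgeR adjusted p = 0.0115). The fall in KO cells was -0.09 with scaling by library size alone and no longer passed.

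Fdft1, the squalene synthase, measured 22.4, 19.3 and 17.5 CPM in flox BMM, 14.3, 15.7 and 15.8 in KO BMM, 12.6, 11.7 and 12.4 in flox OC and 14.1, 13.3 and 13.9 in KO OC. It fell with RANKL in flox cells by 0.69 on the log2 scale. In KO cells the log2 change was -0.16 and did not pass, although the KO OC libraries all lay below the KO BMM libraries. That change passed in a fit of the 2 KO groups alone and without the first flox BMM, the third flox BMM or the first KO BMM library. The genotype difference in BMM was -0.36 (SE 0.0738, edgeR adjusted p = 6.42e-05), and the RANKL effects differed by 0.53 (SE 0.11, edgeR adjusted p = 0.000203). Its values are uncertain, because 26.8% of its exonic bases are shared with Ctsb on the opposite strand and the counting ignored strand. In addition, 33.7% of its longest transcript matched another gene. Lss, the lanosterol synthase, fell with RANKL by 0.35 in flox and 0.30 in KO cells on the log2 scale and passed in neither genotype comparison.

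Between lanosterol and cholesterol, 6 of 8 genes fell with RANKL in each genotype, beside 37.8% of all genes in flox and 35.0% in KO cells. In KO BMM 5 were lower and 2 higher, beside 20.6% and 19.3% of all genes. Cyp51, which removes the first methyl group from lanosterol (ENSMUSG00000001467, chr5:4081145-4104746, - strand), measured 69.2, 61.3 and 62.5 CPM in flox BMM, 42.5, 40.7 and 42.6 in KO BMM, 31.02, 34.25 and 33.98 in flox OC and 28.6, 28.4 and 28.3 in KO OC. The 4 groups did not overlap, with flox BMM highest and KO OC lowest. Its genotype difference was -0.62 (SE 0.0467, edgeR adjusted p = 1.16e-15) in BMM and -0.22 (SE 0.0546, edgeR adjusted p = 0.00108) in OC. RANKL lowered it by a log2 change of -0.96 (SE 0.0481, edgeR adjusted p = 2.55e-23) in flox and -0.56 (SE 0.0529, edgeR adjusted p = 2.9e-13) in KO cells, a difference of 0.40 (SE 0.0721, edgeR adjusted p = 2.59e-05).

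Msmo1, the methylsterol monooxygenase that acts after Cyp51, had another pattern. It measured 92.96, 90 and 85.26 CPM in flox BMM and 54.9, 53.0 and 54.4 in KO BMM, and 105.3, 102.2 and 107.3 in flox OC and 65.6, 65.5 and 68.8 in KO OC. All 6 KO libraries lay below all 6 flox libraries, and RANKL raised it in both genotypes. The genotype difference was -0.73 (SE 0.04, edgeR adjusted p = 1.37e-20) in BMM, the largest fall among the 31 genes there, and -0.66 (SE 0.0375, edgeR adjusted p = 4.84e-20) in OC. The RANKL effect was 0.23 in flox and 0.30 in KO cells, and their difference did not pass (0.07, edgeR adjusted p = 0.407).

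Sc5d, the sterol desaturase late in the chain, measured 33.8, 32.1 and 32.3 CPM in flox BMM, 22.9, 20.9 and 23.8 in KO BMM, 17.8, 18.3 and 20.3 in flox OC and 17.0, 17.4 and 16.2 in KO OC. The flox BMM libraries were the highest, at a genotype difference of -0.54 (SE 0.0589, edgeR adjusted p = 1.13e-10) in BMM. RANKL lowered it by 0.80 in flox and 0.42 in KO cells on the log2 scale, which differed by 0.38 (edgeR adjusted p = 0.00118). Hsd17b7, a sterol ketoreductase, measured 29.96, 27.89 and 24.7 CPM in flox BMM and 19.0, 19.6 and 21.0 in KO BMM, against 30.2, 26.9 and 29.2 in flox OC and 26.1, 26.6 and 24.7 in KO OC. Its KO BMM libraries were the low ones, with a genotype difference of -0.47 (SE 0.0653, edgeR adjusted p = 6.2e-08) in BMM and a rise of 0.37 with RANKL in KO cells (edgeR adjusted p = 1.82e-06). In OC the difference of -0.16 was lost with DESeq2 and without the first or the third library of either OC group.

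Tm7sf2, a sterol reductase, fell with RANKL by 0.93 on the log2 scale in flox and 0.82 in KO cells, from 14.2 ± 1.63 to 7.39 ± 0.508 CPM in flox and from 11.7 ± 0.27 to 6.59 ± 0.0689 in KO cells. In KO cells its libraries were 11.9, 11.4 and 11.6 CPM in BMM and 6.51, 6.63 and 6.63 in OC (log2 change -0.82, SE 0.0941, edgeR adjusted p = 8.94e-11). The genotype difference of -0.28 in BMM was lost with DESeq2 and, at -0.18, without the first flox BMM library. Of its exonic bases, 15.3% are shared with Vps51. Dhcr7, which carries out a last reduction to cholesterol and whose loss causes Smith-Lemli-Opitz syndrome in people, was higher in KO in both cultures. It measured 60.7, 61.2 and 52.8 CPM in flox BMM, 67.3, 63.8 and 64.3 in KO BMM, 35.5, 37.5 and 40.1 in flox OC and 47.0, 44.6 and 42.3 in KO OC, with no overlap between genotypes in either. KO minus flox was 0.16 in BMM (edgeR adjusted p = 0.00775, lost at 0.098 without the third flox BMM library) and 0.25 (SE 0.054, edgeR adjusted p = 0.000278) in OC. Ebp, the sterol isomerase, was higher in KO BMM by 0.13 on the log2 scale and fell with RANKL by 0.26 in flox and 0.32 in KO cells. Nsdhl, a sterol dehydrogenase, fell with RANKL by 0.29 and 0.31 and showed no genotype call. With scaling by library size alone the falls of Ebp (-0.09) and Nsdhl (-0.12) in flox cells no longer passed.

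Among the 4 sterol sensing genes, Insig1 had the largest fall with RANKL. Insig1, itself a target of SREBP-2 and so a common readout of the pathway (ENSMUSG00000045294, chr5:28071363-28078662, + strand), measured 42.0, 42.4 and 41.3 CPM in flox BMM, 38.0, 36.1 and 39.2 in KO BMM, 16.5, 17.3 and 19.0 in flox OC and 15.8, 17.2 and 18.9 in KO OC. RANKL libraries lay far below the others, and the genotypes overlapped within them. The fall was 2.39-fold in flox (log2 change -1.26, SE 0.059, edgeR adjusted p = 1.96e-24) and 2.18-fold in KO cells (-1.12, SE 0.0601, edgeR adjusted p = 4.19e-22), and the effects differed by 0.13, which did not pass (edgeR adjusted p = 0.313). The genotype difference was -0.15 in BMM (SE 0.0518, edgeR adjusted p = 0.0177) and -0.02 in OC (SE 0.0689, edgeR adjusted p = 0.851). The BMM call was lost with DESeq2, with scaling by library size alone and without the second flox or the second KO library.

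Srebf2 (ENSMUSG00000022463, chr15:82147266-82205376, + strand) measured 357, 354.5 and 330 CPM in flox BMM, 314.8, 313.1 and 327.2 in KO BMM, 234.5, 237.4 and 231.7 in flox OC and 255.5, 259.2 and 261.8 in KO OC. KO libraries were the lower ones in BMM and the higher ones in OC, without overlap. Between genotypes the difference was -0.12 (SE 0.0292, edgeR adjusted p = 0.000463) in BMM and 0.14 (SE 0.03, edgeR adjusted p = 0.000115) in OC. RANKL lowered Srebf2 by a log2 change of -0.57 (SE 0.0297, edgeR adjusted p = 1.49e-22) in flox and -0.30 (SE 0.0296, edgeR adjusted p = 1.25e-12) in KO cells, a difference of 0.27 (SE 0.0419, edgeR adjusted p = 2.05e-06). Scap rose with RANKL, from 64.7 ± 4.74 to 73.8 ± 2.98 CPM in flox and from 59.9 ± 0.499 to 74.2 ± 0.567 in KO cells (log2 changes 0.19 and 0.31). Its exons share 18.9% of their bases with a gene on the opposite strand, and its small genotype call in BMM (-0.11) was lost with DESeq2, with scaling by library size alone, without the low-count filter, in a fit of the 2 BMM groups alone and without any BMM library but the third flox one (-0.054 without the first flox one). Insig2, the second Insig protein, fell with RANKL by 0.49 and 0.54 on the log2 scale, without a genotype call.

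Of the intracellular carriers, Npc2 did not pass in any comparison, with library values from 972 to 1083 CPM, although its KO OC libraries all lay above its flox OC libraries. With scaling by library size alone it passed for genotype in BMM and for RANKL in both genotypes. Without the third flox BMM library it passed for genotype in BMM and RANKL in flox cells, and in a fit of the 2 KO groups alone for RANKL in KO cells. Npc1, the lysosomal membrane protein that receives cholesterol from Npc2, averaged 404 ± 11 CPM in flox BMM, 464.7 ± 4.9 in KO BMM, 269.9 ± 3.91 in flox OC and 304.1 ± 2.67 in KO OC. It fell with RANKL by 0.58 and 0.61 on the log2 scale and was higher in KO in both cultures, by 0.20 and 0.17. Stard4, a soluble sterol carrier, fell with RANKL by 0.86 in flox and 0.58 in KO cells, which differed by 0.28 (edgeR adjusted p = 4.07e-05). Its levels were 92.6 ± 1.11 CPM in flox BMM and 86.6 ± 0.959 in KO BMM, and 50.9 ± 0.549 in flox OC and 58.1 ± 0.949 in KO OC. The log2 difference of -0.10 in BMM was lost with DESeq2, with scaling by library size alone, without the low-count filter and without the second or the third flox or the first or the second KO library, and that of 0.19 in OC passed in each of these.

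Soat1, which esterifies cholesterol for storage in droplets, measured 423.3, 422.6 and 436.1 CPM in flox BMM, 485.4, 490.5 and 489.5 in KO BMM, 217.3, 226.3 and 229.7 in flox OC and 250.3, 244.4 and 252.9 in KO OC. It was higher in KO in both cultures without overlap, by 0.19 in BMM (SE 0.0272, edgeR adjusted p = 6.88e-08) and 0.15 in OC (SE 0.0288, edgeR adjusted p = 2.45e-05) on the log2 scale. RANKL lowered it by a log2 change of -0.93 in flox and -0.97 (SE 0.028, edgeR adjusted p = 4.82e-33) in KO cells.

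**Figure D4:**
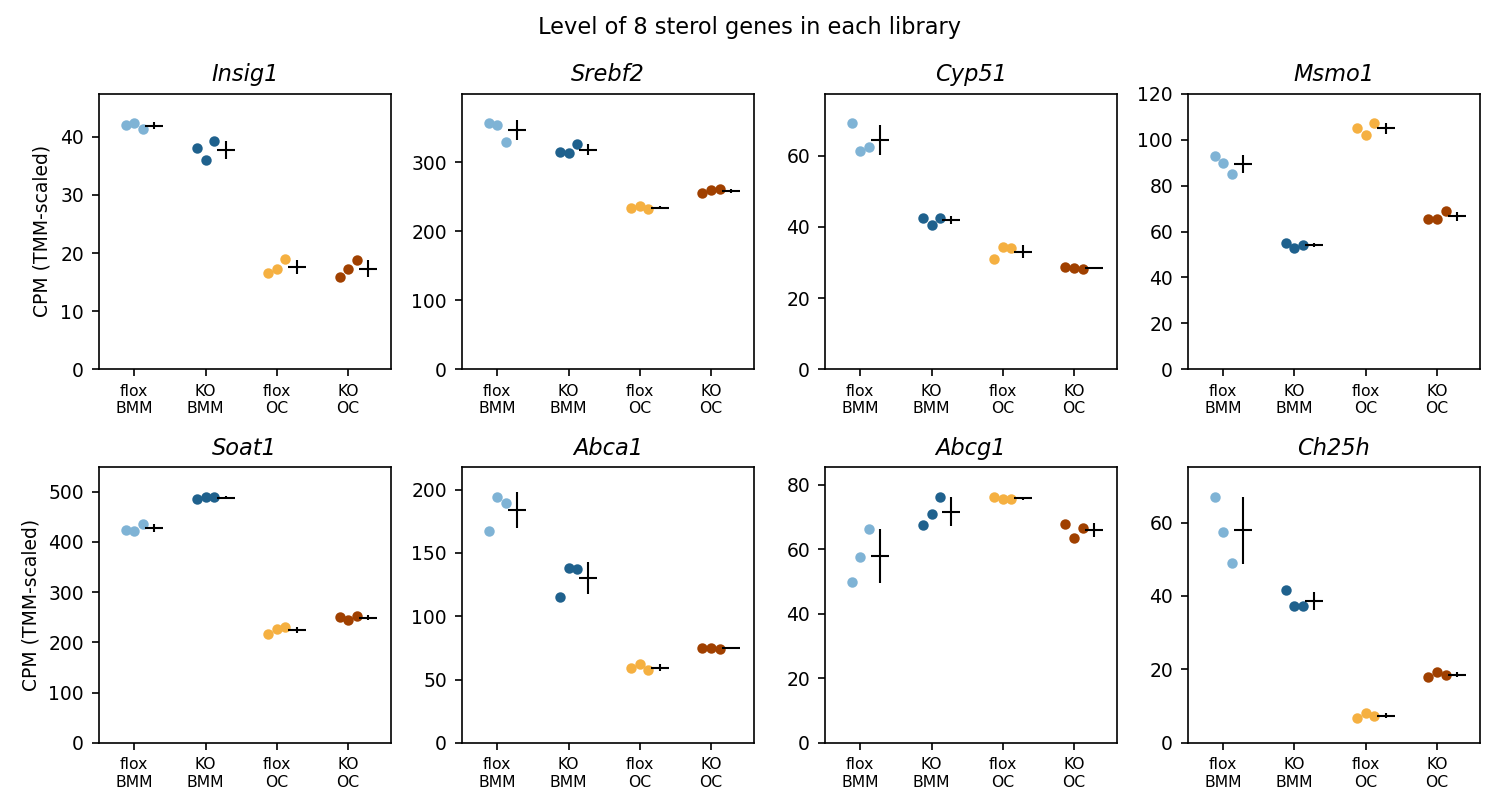
Level of 8 of the genes in each library (coloured points, 3 per group) with the group mean ± SD (black), in TMM-scaled CPM from 0. RANKL libraries sit below M-CSF libraries for Insig1, Srebf2, Cyp51, Soat1, Abca1 and Ch25h, KO libraries sit below flox libraries for Msmo1 in both cultures, and Abcg1 stays between 49.7 and 76.4 CPM.

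The 2 efflux transporters went different ways. Abca1, which loads cholesterol onto apolipoprotein acceptors (ENSMUSG00000015243, chr4:53030787-53159895, - strand), measured 167.5, 194.6 and 189.6 CPM in flox BMM, 115.5, 138.1 and 137.2 in KO BMM, 58.8, 62.2 and 57.2 in flox OC and 75.2, 75.1 and 74.5 in KO OC. No groups overlapped, and the KO level was the lower one in BMM and the higher one in OC. RANKL lowered Abca1 3.10-fold in flox cells (log2 change -1.63, SE 0.079, edgeR adjusted p = 9.17e-09) and 1.74-fold in KO cells (-0.80, SE 0.0789, edgeR adjusted p = 5.16e-06). The effects differed by 0.83 (SE 0.113, edgeR adjusted p = 0.000416). The genotype difference was -0.50 (SE 0.0722, edgeR adjusted p = 0.000294) in BMM and 0.34 (SE 0.0864, edgeR adjusted p = 0.0106) in OC.

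Abcg1, which passes cholesterol to HDL particles (ENSMUSG00000024030, chr17:31057698-31115777, + strand), measured 49.7, 57.7 and 66.4 CPM in flox BMM, 67.5, 71.0 and 76.4 in KO BMM, 76.2, 75.7 and 75.5 in flox OC and 67.7, 63.4 and 66.5 in KO OC. The flox BMM libraries were spread widely and all below the KO BMM and flox OC libraries. RANKL raised it in flox cells (log2 change 0.39, SE 0.0802, edgeR adjusted p = 0.000923), the change in KO cells was -0.12 (SE 0.0788, edgeR adjusted p = 0.189), and the effects differed by -0.51 (SE 0.112, edgeR adjusted p = 0.00687). KO against flox gave 0.31 (SE 0.0814, edgeR adjusted p = 0.0104) in BMM. In OC it was -0.20 (SE 0.0777, edgeR adjusted p = 0.0578), which did not pass here and passed with DESeq2 or its size factors, without the low-count filter, with the replicate block, in a fit of the 2 OC groups alone and without the first or the third library of either BMM group. The change in KO cells passed without the low-count filter, in a fit of the 2 KO groups alone and without the first or the third flox BMM library.

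Mylip, a ubiquitin ligase that removes lipoprotein receptors from the cell surface (ENSMUSG00000038175, chr13:45389742-45412019, + strand), measured 65.0, 66.2 and 67.7 CPM in flox BMM, 55.6, 51.5 and 56.6 in KO BMM, 34.9, 32.1 and 34.5 in flox OC and 31.2, 32.4 and 33.8 in KO OC. It was lower in KO BMM, and the genotypes overlapped in OC. The genotype difference was -0.28 (SE 0.0431, edgeR adjusted p = 4.22e-07) in BMM and -0.06 (SE 0.0514, edgeR adjusted p = 0.387) in OC. RANKL lowered Mylip by a log2 change of -0.97 (SE 0.0462, edgeR adjusted p = 3.1e-24) in flox and -0.75 (SE 0.0478, edgeR adjusted p = 3.74e-19) in KO cells. The difference of 0.22 (edgeR adjusted p = 0.0121) was lost with DESeq2 and without the second KO BMM, the second flox OC or the third KO OC library.

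Ch25h had the largest RANKL effect in flox cells and the largest genotype difference in OC of the 31 genes. It encodes the oxysterol-forming cholesterol hydroxylase of macrophages, whose oxysterol product restrains SREBP-2 and activates LXR (ENSMUSG00000050370, chr19:34473786-34475135, - strand). It measured 67.1, 57.4 and 49 CPM in flox BMM, 41.6, 37.2 and 37.2 in KO BMM, 6.86, 8.01 and 7.41 in flox OC and 17.8, 19.2 and 18.6 in KO OC. No groups overlapped: KO libraries lay below flox libraries under M-CSF alone and above them with RANKL. The fall with RANKL was 7.8-fold in flox cells (log2 change -2.96, SE 0.13, edgeR adjusted p = 7.81e-10) and 2.08-fold in KO cells (-1.06, SE 0.115, edgeR adjusted p = 5.73e-06). These effects differed by 1.90 (SE 0.186, edgeR adjusted p = 1.76e-05). The genotype difference was -0.58 (SE 0.0955, edgeR adjusted p = 0.000458) in BMM and 1.32 (SE 0.16, edgeR adjusted p = 4.02e-05) in OC. Of its exonic bases, 11.8% are shared with Gm26902 on the opposite strand.

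Of 28 other genes of sterol synthesis, uptake, breakdown and LXR signalling, 26 could be tested. With RANKL, 7 rose and 14 fell in flox cells and 10 rose and 14 fell in KO cells, with median log2 changes of -0.14 and -0.21. Of all genes, 37.0% rose and 37.8% fell in flox and 35.5% rose and 35.0% fell in KO cells. Between genotypes, 7 were higher and 11 lower in KO BMM (beside 19.3% and 20.6% of all genes) and 12 higher and 6 lower in KO OC (beside 21.4% and 19.9%). The RANKL effects differed upward in KO for 13 and downward for 3, beside 12.3% and 9.54% of all genes. Rxra, the partner of LXR, fell with RANKL from 247.3 ± 4.52 to 65.7 ± 1.54 CPM in flox and from 322.7 ± 4.92 to 107 ± 3.15 in KO cells and was higher in KO in both cultures. Nr1h3, the gene of LXR alpha, rose with RANKL from 20.3 ± 1.24 to 33.3 ± 0.913 CPM in flox and from 14.9 ± 0.239 to 31.2 ± 1.2 in KO cells. Cyp27a1, a mitochondrial sterol hydroxylase, fell with RANKL from 20.1 ± 3.77 to 6.02 ± 0.202 CPM in flox and from 21.8 ± 0.616 to 11.9 ± 0.874 in KO cells, leaving KO OC above flox OC by 0.99 on the log2 scale (SE 0.119, edgeR adjusted p = 9.73e-08). Abca5, a relative of Abca1, was lower in KO in both cultures, by 0.92 in BMM and 0.63 in OC on the log2 scale. The cholesteryl ester hydrolase Nceh1 fell with RANKL by 1.46 and 1.13, and the lysosomal lipase gene Lipa by 0.88 and 0.50, on the log2 scale in flox and KO cells.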

How the data were processed

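RNA-seq counts of 12 libraries in 4 groups were used, grouped by their titles. The authors deposited raw counts of reads per gene. The submitters' processing notes name STAR 2.0.4b, featureCounts and the build GRCm38. Counts were summed over the exons of each gene by featureCounts 1.4.5-p1, using Ensembl release 76 and strand setting 0, per the file headers, so reads of overlapping antisense genes cannot be told apart, and genes with near-identical copies are uncertain.

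Genes were filtered with filterByExpr, scaled by TMM factors and tested with edgeR 4.0.16 (quasi-likelihood test, robust, Benjamini-Hochberg over 13030 genes) in a model of 4 group means in R 4.3.3. SEs came from the fold change and its F statistic. Alternatives were DESeq2 1.42.0, its size factors, library size alone, no filter, a 1.2-fold threshold, 2 groups alone, a replicate block and leaving out each library. Motifs were searched on both strands. Shared sequence was found by exon overlap and by a search for stretches of at least 100 bases at 97% identity.

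The 31 genes, the other lists and the motifs were chosen with earlier results of these data known. Full values are given for up to 6 called genes per comparison with the largest change at 5 CPM or more and for Insig1, Srebf2, Sqle, Cyp51, Abca1, Abcg1, Mylip and Ch25h. Of the other sterol genes, up to 4 per comparison were to be named by the same rule, and some that it selects are not reported here. Same-numbered libraries did not deviate together (r from -0.0353 to 0.0397 over 18 pairs). That gave no sign of pairing but cannot exclude it, and no pairing by number is stated, so the main model had no replicate term.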

Additional observations from a re-analysis of the deposited data

Results flagged for a closer look

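The RANKL effects of the 2 genotypes differed by the edgeR test for 11 of the 31 genes, as KO minus flox on the log2 scale. The difference was 1.90 for Ch25h, 0.83 for Abca1, 0.53 for Fdft1, 0.40 for Cyp51 and 0.38 for Sc5d. It was 0.31 for Hsd17b7, 0.28 for Stard4, 0.27 for Srebf2, 0.23 for Hmgcs1 and 0.22 for Mylip. Abcg1 alone had the opposite sign, at -0.51. Hsd17b7 and Mylip no longer passed with DESeq2 (0.30 and 0.21). Over all genes tested 21.9% passed.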

How the results depend on the processing

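With scaling by library size alone, the median log2 fold change of the 31 genes was -0.104 for genotype in BMM, -0.397 for RANKL in flox, -0.273 for RANKL in KO and 0.0791 for the difference of RANKL effects. That scaling moved the median of all genes by 0.168 (RANKL in flox) and 0.135 (RANKL in KO) and the calls among all genes to 3330 higher and 2228 lower (genotype in BMM, 59.9% higher against 48.3%), 6321 and 3737 (RANKL in flox, 62.8% against 49.5%), 5972 and 3429 (RANKL in KO, 63.5% against 50.4%) and 1312 and 1715 (the difference, 43.3% against 56.4%). Abcg1 with RANKL in KO was 0.013 under it, of opposite sign and passing in neither. Beyond 1.2-fold, the counts of the 31 genes were 0 higher and 7 lower (genotype in BMM), 1 and 1 (genotype in OC), 1 higher (RANKL, each genotype) and 2 and 0 (the difference), and all genes called numbered 1534, 1482, 5535 (RANKL in KO) and 504. Without 1 library, the medians ranged from -0.161 to -0.0968 (genotype in BMM), 0.00084 to 0.0507 (genotype in OC), -0.597 to -0.551 and -0.447 to -0.379 (RANKL in flox and KO) and 0.0558 to 0.143 (the difference). Insig1 by genotype in OC, which did not pass, ranged from -0.084 to 0.039. With the replicate block, Abcg1 by genotype in OC passed (-0.20, edgeR adjusted p = 0.00764), and no other call of the 31 genes changed. Whether the numbers pair the libraries is not stated, and 1 library correlated best with its own number in all groups. Of 52 values of the genes that did not pass and are given as ranges, 17 changed sign and 12 passed under at least 1 alternative; the largest that changed sign was 0.163 in size. All alternatives were planned, and the causes of these shifts were not tested.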
